A study of Caenorhabditis elegans with 2 samples.

Results

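The chaperonin CCT (also called TRiC) is encoded in Caenorhabditis elegans by the genes cct-1 to cct-8, and all 8 are described here by the REPO-1 ChIP-seq summits that lay in or near them. They are 8 of 19973 nuclear protein-coding genes in the Ensembl annotation of WBcel235, the assembly also called ce11. The genes were taken by name, and every summit within 1000 bp of a gene body was listed. The set was chosen with earlier results of these data known. CCT is a barrel of stacked rings in which each position of a ring is filled by a different subunit, so that the complex needs the product of every one of these genes. It binds newly made proteins in its cavity and folds them with the use of ATP, and actin and tubulin are its best known substrates. REPO-1 corresponds to human SF3A2, one of the SF3a proteins that help the U2 snRNP recognise the branch site of introns during splicing.

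There was 1 group, of 2 biological replicates. Both came from strain OP688, with the genotype unc-119(tm4063) III; wgIs688, in which an integrated transgene expresses REPO-1 with GFP and FLAG fused to its C terminus. Whole young adults of mixed sex were collected 53 hours after synchronisation by hatching into starvation at the first larval stage, and chromatin was pulled down through GFP. Signal from whole animals does not tell which tissues carried it, and whether the animals kept the endogenous repo-1 gene is not given in the sources used here. The labels name a possible control experiment, which was not analysed here, so there was no comparison group.

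The replicated list, thresholded by the authors with the irreproducible discovery rate (IDR), held 1789 summits and equals the 1789 strongest of the 30000 summits called on both replicates together. The pooled list and each replicate's own list held 30000 summits with no significance threshold. Signal in the replicated list ran between 131.5 and 1217.6 with a median of 173.3. The scale of this signal is not stated, so values are given within a list and ranks are used across lists. No read counts were in the lists and sequencing depth is unknown. With 1 group and no comparison group no test across samples was possible, and the CCT counts below stand beside the same counts over all protein-coding genes without a p-value.

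The replicated list held 6 summits within 1000 bp of a CCT gene, at 5 of the 8 genes (62.5%), where 10.7% of all protein-coding genes had one. The genes were cct-1, cct-2, cct-6, cct-7 and cct-8, and cct-7 had a summit at either end. Of the 6, 3 lay upstream of a 5′ end and 3 lay beyond a 3′ end. None lay inside a CCT gene body, a position that held a replicated summit in 3.98% of all protein-coding genes. At 5 of the 6 summits the nearest protein-coding 5′ end belonged to another gene than the CCT gene. No summit came close to the 1000 bp limit, since the farthest of the 6 was 438 bp from its gene and the nearest ones outside the limit were 2878 bp from cct-4, 3448 bp from cct-7 and 4111 bp from cct-2.

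The sequences under 5 of these summits are printed to show what kind of DNA carried the peaks: spacer between divergent genes at cct-8 and cct-1, the gap between divergent protein-coding genes at cct-7, whose printed window ends inside the non-coding RNA gene T10B5.13, spacer between same-strand genes at cct-6, and coding sequence of mrpl-50 at cct-2. Each reaches 100 bases to either side of the summit and is taken from the RefSeq copy of WBcel235. The window beyond the cct-7 3′ end is not shown because it lies in untranslated sequence of zig-11. Capitals mark the letters GAANNTTC, which is the same on both strands and holds a pair of the GAA and TTC units found in heat shock elements, the sites of the heat shock factor HSF-1.
cct-8 summit, chrIV:1094258-1094458, plus strand: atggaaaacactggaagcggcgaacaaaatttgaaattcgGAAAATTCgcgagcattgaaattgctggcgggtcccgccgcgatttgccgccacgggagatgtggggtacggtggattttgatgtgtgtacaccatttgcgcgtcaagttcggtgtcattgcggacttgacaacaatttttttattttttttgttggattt
cct-1 summit, chrII:8185110-8185310, plus strand: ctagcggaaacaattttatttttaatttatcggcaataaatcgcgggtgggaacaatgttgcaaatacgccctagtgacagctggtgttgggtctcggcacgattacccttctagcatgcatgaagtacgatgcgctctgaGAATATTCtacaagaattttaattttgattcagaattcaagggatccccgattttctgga
cct-7 summit, chrV:1871831-1872031, plus strand: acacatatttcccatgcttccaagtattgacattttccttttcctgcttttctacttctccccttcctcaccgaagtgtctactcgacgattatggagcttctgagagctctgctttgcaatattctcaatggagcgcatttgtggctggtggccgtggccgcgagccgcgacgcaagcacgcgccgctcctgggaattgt
cct-6 summit, chrIII:5853275-5853475, plus strand: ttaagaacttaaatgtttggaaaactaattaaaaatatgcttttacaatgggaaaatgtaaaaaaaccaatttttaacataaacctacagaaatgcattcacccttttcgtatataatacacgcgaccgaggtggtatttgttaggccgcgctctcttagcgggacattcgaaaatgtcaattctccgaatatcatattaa
cct-2 summit, chrII:8929889-8930089, plus strand: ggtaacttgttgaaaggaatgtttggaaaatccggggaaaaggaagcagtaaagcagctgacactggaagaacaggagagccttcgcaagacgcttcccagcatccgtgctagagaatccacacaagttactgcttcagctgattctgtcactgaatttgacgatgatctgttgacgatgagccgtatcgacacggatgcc

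**Figure D1:**
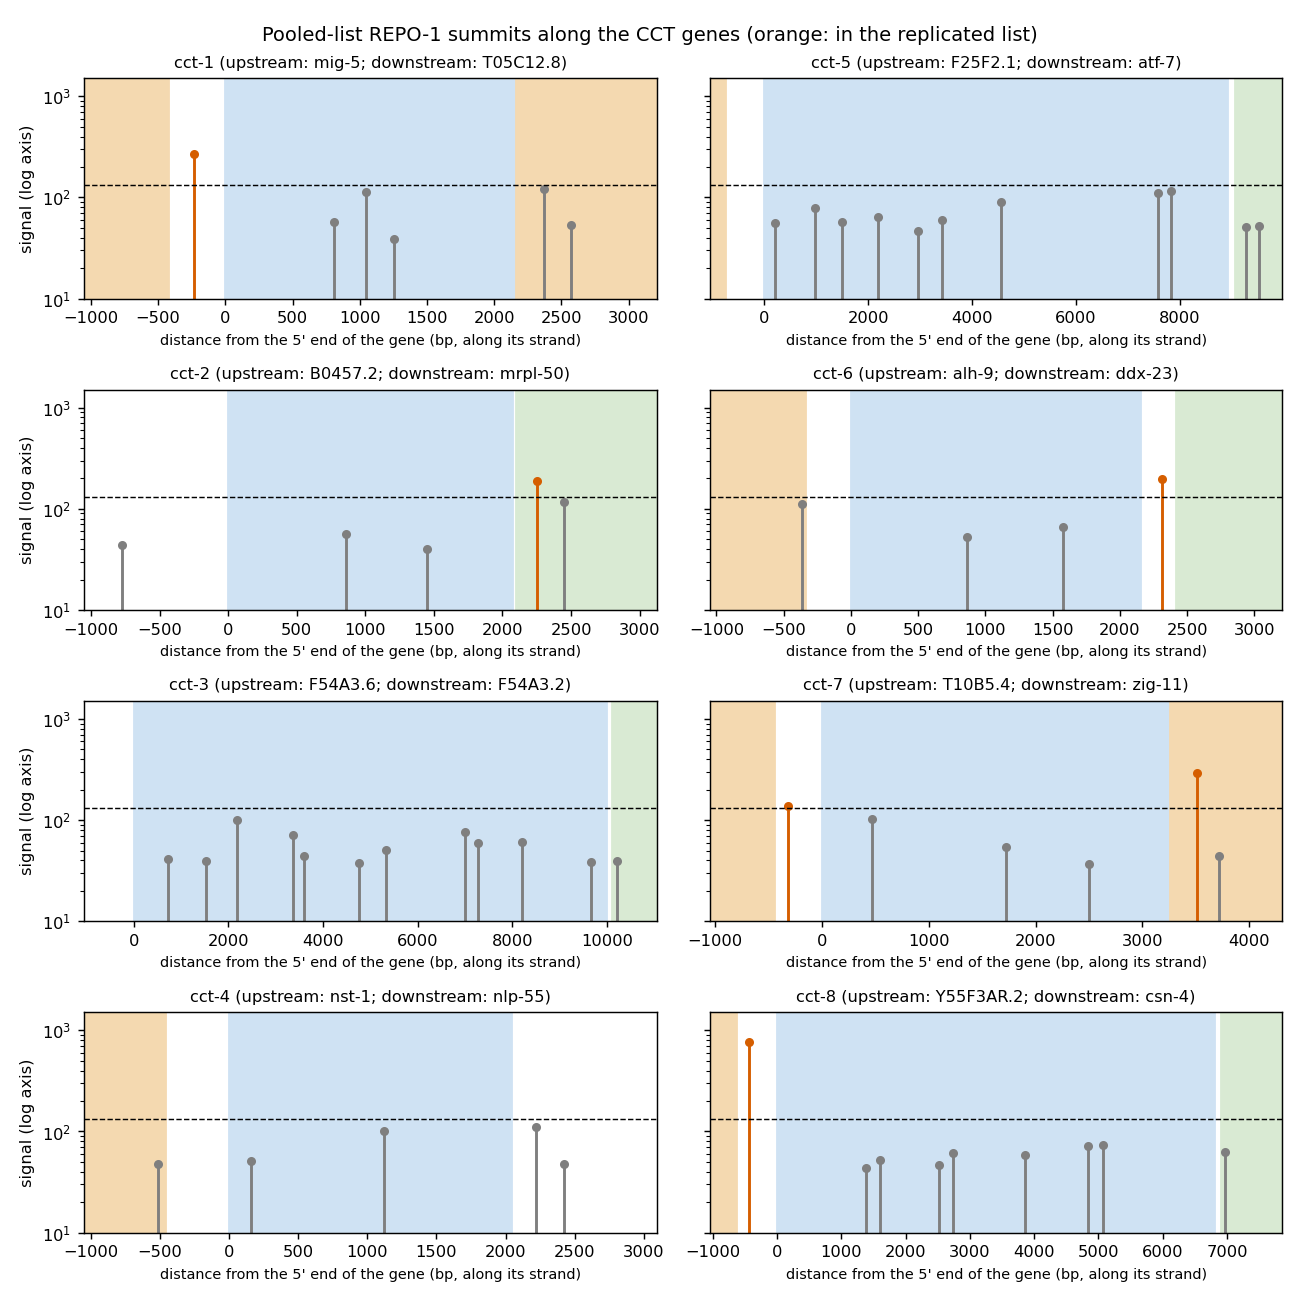
Each panel shows 1 CCT gene, with the distance from its 5′ end along its own strand on the horizontal axis (bp) and the pooled-list signal of each summit on a logarithmic vertical axis. The blue band is the gene, orange bands are protein-coding neighbours on the other strand, green bands are same-strand neighbours, drawn only beyond the gene's own ends, and the dashed line is the lowest signal in the replicated list, 131.5. The orange stems, which are the summits in the replicated list, stand outside the blue bands in all panels that have one, and cct-3, cct-4 and cct-5 have none.

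The strongest of the 6 summits stood upstream of cct-8, which encodes the theta subunit. The gene lies on the minus strand of chromosome IV (1087108 to 1093920, WBGene00021934). The summit, at position 1094358 in a region of 254 bp (1094243 to 1094496), was 438 bp upstream of the cct-8 5′ end. Its signal of 769.0 ranked 14 among the 1789 replicated summits. It ranked 13 in replicate 1 (signal 448.7) and 14 in replicate 2 (signal 319.4), and the 3 lists placed the summit within 18 bp of the pooled position. Its region was narrower than the 436 bp median of the list. Y55F3AR.2, on the opposite strand, started 183 bp away and so was nearer than cct-8. The non-coding RNA gene Y55F3AR.4 ended 149 bp from the summit. The peak stood in the gap between the divergent pair and may belong to any of these genes.

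The summit of cct-1 also stood in a gap between divergent genes. The gene for the alpha subunit lies on the plus strand of chromosome II (8185443 to 8187601, WBGene00000377), and the summit at 8185210 (region 8184992 to 8185427) was 233 bp upstream of it. The signal was 271.7, rank 296. The region ranked 332 in replicate 1 (signal 160.6) and 366 in replicate 2 (signal 109.4). The 5′ end of mig-5, which encodes a Dishevelled protein of Wnt signalling and lies on the other strand, was 187 bp from the summit. The gap between both genes measured 419 bp, and the summit lay near its middle.

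The gene for the eta subunit, cct-7, was the only CCT gene with replicated summits at both ends, a pattern found in 0.656% of all protein-coding genes. It lies on the plus strand of chromosome V (1872246 to 1875505, WBGene00020391). The upstream summit at 1871931 (region 1871713 to 1872148) was 315 bp from the 5′ end and the weakest of the 6, with a signal of 138.5 and rank 1555. It ranked 2193 in replicate 1 (signal 79.1) and 2646 in replicate 2 (signal 51.4), outside the 1789 strongest of each. Its place in the replicated list thus rests on the pooled signal, with neither replicate alone ranking it that high. The non-coding RNA gene T10B5.13 started 49 bp away and the protein-coding gene T10B5.4, on the other strand, 124 bp away. The second summit at 1875758 (region 1875540 to 1875975), 253 bp beyond the 3′ end, was stronger, with a signal of 290.9 and rank 243. It ranked 225 in replicate 1 (signal 180.4) and 217 in replicate 2 (signal 134.2). This position lay in an exon outside the coding sequence of zig-11, 280 bp inside the 3′ end of that gene, which runs towards cct-7 on the other strand and overlaps its last bases. The zig genes encode immunoglobulin-domain proteins. No protein-coding 5′ end was nearer to this summit than that of cct-7 itself, 3506 bp away, so assignment by the nearest 5′ end gave it to cct-7.

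The summits of cct-2 and cct-6 stood where the CCT gene is followed closely by another gene on the same strand. For cct-2, the beta subunit gene on chromosome II (8927741 to 8929815, plus strand, WBGene00000378), the summit at 8929989 (region 8929771 to 8930206) was 174 bp beyond the 3′ end. Its signal was 189.5, rank 734, with rank 678 in replicate 1 (signal 121.0) and rank 629 in replicate 2 (signal 88.6). The next gene, mrpl-50, which encodes a protein of the large mitochondrial ribosomal subunit, begins after a gap of 25 bp. The summit thus lay in a coding exon of mrpl-50, 148 bp past its 5′ end. For cct-6, the zeta subunit gene on chromosome III (5853530 to 5855687, minus strand, WBGene00000381), the summit at 5853375 (region 5853157 to 5853592) was 155 bp beyond the 3′ end. Its signal was 196.5, rank 678, with rank 695 in replicate 1 (signal 120.3) and rank 742 in replicate 2 (signal 83.1). The gap to ddx-23, a DEAD-box helicase gene whose human ortholog acts in the spliceosome, measured 260 bp, and the summit was 106 bp upstream of the ddx-23 5′ end. Neither summit can be told apart as one of a CCT 3′ end or of the next gene's 5′ end.

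**Figure D2:**
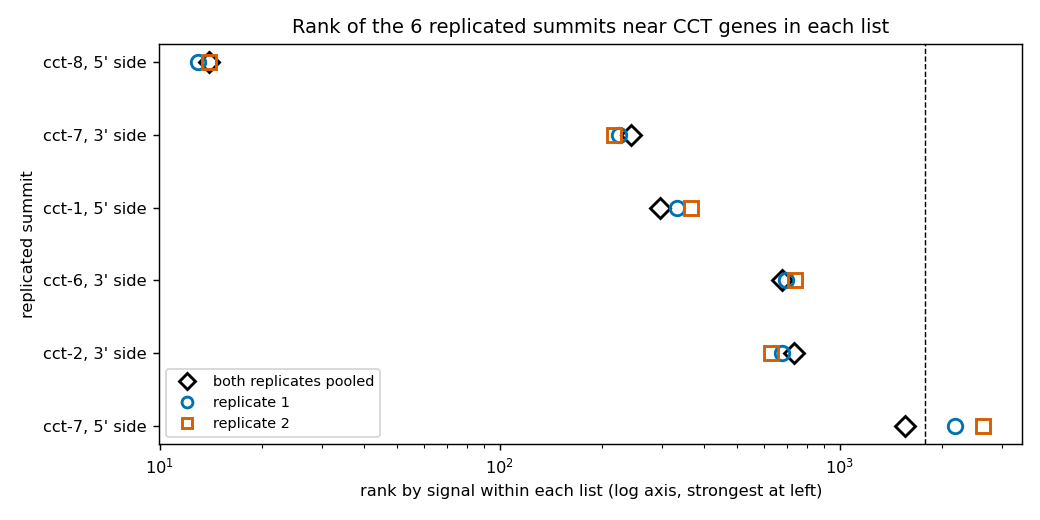
The horizontal axis gives the rank by signal within each list (logarithmic, strongest at the left) for the 6 replicated summits near CCT genes, 1 per row. Diamonds are the pooled calls, circles replicate 1 and squares replicate 2. In 5 rows all 3 symbols lie left of the dashed line at rank 1789, and in the row of the cct-7 5′ side both replicates lie to its right, at 2193 and 2646.

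The windows under the 6 replicated summits, of which 5 are printed above, differed in base composition. The G+C share was 51.7% at the upstream summit of cct-7, 48.3% at cct-2, 45.8% at cct-8, 41.3% at cct-1, 36.8% at the 3′ summit of cct-7 and 32.8% at cct-6. The median over all 1789 replicated summit windows was 42.3%, with quartiles of 36.8% and 47.8%. The letters GAANNTTC occurred in 3 of the 6 CCT windows, those at cct-1, cct-8 and the cct-7 3′ side, and in 10.1% of all replicated windows. The converse arrangement TTCNNGAA, likewise the same on both strands, occurred in 1 of 6, at the cct-7 3′ side, against 10.6% of all windows. That window was also the only CCT window to hold TATAAA (15.3% of all) and TTTCAG (25.3% of all), both searched on either strand. TTTCAG matches the usual last letters of worm introns. Overlapping matches were counted, and a window counted once. In the 300 bp around each 5′ end, made of 250 bp before it and 50 bp after it, GAANNTTC was found at 5 of the 8 CCT genes and in 18.5% of all protein-coding genes. TTCNNGAA was found at 5 of 8 and in 18.9%, TATAAA at 2 of 8 and in 37.9%, and TTTCAG at 6 of 8 and in 51.7%. The CCT genes without GAANNTTC there were cct-2, cct-4 and cct-6. These matches are letters, not sites of binding, and no difference from the rest was tested.

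The remaining genes, cct-3, cct-4 and cct-5, had no replicated summit within 1000 bp. The closest to that rank was a pair of neighbouring summits in coding exons of cct-5, the epsilon subunit gene on chromosome III (4499188 to 4508114, minus strand, WBGene00000380). They lay 1103 and 1337 bp inside the 3′ end, with signals of 115.5 (rank 2574) and 109.8 (rank 2948). The replicates differed here. The overlapping region ranked 879 in replicate 1 (signal 108.8) and 8650 in replicate 2 (signal 32.4). The strongest summit near cct-5 in replicate 2 was another one, in an intron 3415 bp from the 5′ end, with rank 2274. At cct-4, the delta subunit gene on chromosome II (8283667 to 8285711, plus strand, WBGene00000379), the strongest pooled summit was 175 bp beyond the 3′ end with a signal of 111.4 and rank 2817. It ranked 4270 in replicate 1 (signal 62.3) and 2420 in replicate 2 (signal 53.0). No other gene lay within 1000 bp of that summit, the limit used here for possible owners. Which gene the signal belongs to was not tested. A summit in a coding exon of cct-4 followed, with signal 101.5 (rank 3600), and it ranked 2107 in replicate 1 and 5212 in replicate 2. At cct-3, the gamma subunit gene on chromosome II (2233540 to 2243539, plus strand, WBGene00018782), the strongest pooled summit lay in a coding exon 2184 bp from the 5′ end. Its signal was 100.1, rank 3729, with rank 6701 in replicate 1 (signal 52.9) and 3084 in replicate 2 (signal 48.4).

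In the pooled list without a threshold, every CCT gene had a summit just past its 3′ end. In the window used for 3′ ends, 200 bp before the end and 500 bp past it, all 8 genes had a summit in that list, where 30.5% of all protein-coding genes had one. The first summit past the end was at 155 bp in cct-6, 160 bp in cct-8, 174 bp in cct-2, 175 bp in cct-4, 211 bp in cct-1, 215 bp in cct-3, 253 bp in cct-7 and 351 bp in cct-5. Those of cct-8, cct-3 and cct-5 lay past the start of the next same-strand gene, which follows after 94, 102 and 142 bp. Those of cct-2 and cct-7 lay inside mrpl-50 and zig-11, as given above. Only those of cct-4 and cct-6 lay outside any neighbouring gene. In a window from 100 to 300 bp past the end, chosen after these positions were seen, 7 of 8 CCT genes had a summit, beside 13.5% of all protein-coding genes. The strength of these summits ran over most of the list. Besides those of cct-2, cct-6 and cct-7 in the replicated list, the signal was 121.9 (rank 2226) at cct-1, 111.4 (rank 2817) at cct-4, 62.7 (rank 12009) at cct-8, 50.5 (rank 18461) at cct-5 and 39.1 (rank 27402) at cct-3. Those of cct-5 and cct-3 were not seen in both replicates. Replicate 1 had no summit in the 3′ window of either gene, and in replicate 2 the summits there ranked 11335 and 14546. The cct-1 summit ranked 1846 in replicate 1, just outside the 1789 strongest, and 2685 in replicate 2, and it lay within T05C12.8, a gene on the other strand that overlaps the end of cct-1.

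The 5′ ends were less even. In the window used for 5′ ends, 500 bp before the end and 200 bp past it, 5 of the 8 CCT genes had a pooled summit, where 25.5% of all protein-coding genes had one. The genes without one were cct-2, cct-3 and cct-5. Beside the summits already given for cct-1, cct-7 and cct-8, cct-6 had a summit 361 bp upstream with a signal of 110.9 (rank 2862). It lay inside alh-9, an aldehyde dehydrogenase gene on the other strand. The summit of cct-4 was weak, at 51.5 (rank 17831), and lay 158 bp inside the gene in a coding exon.

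**Figure D3:**
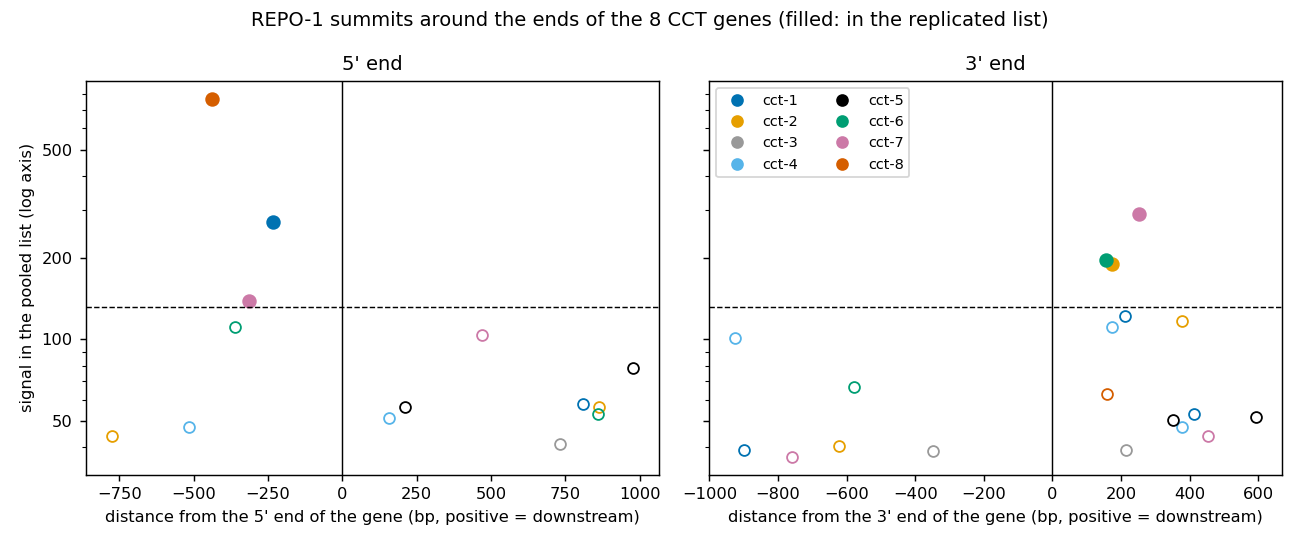
Each circle is a summit of the pooled list, placed by its distance from the 5′ end (left) or 3′ end (right) of the CCT gene (bp, positive downstream) and by its signal on a logarithmic axis; colours give the gene, filled circles are in the replicated list and the dashed line marks 131.5. On the left, the 3 filled circles lie between 438 and 233 bp upstream, and on the right the 3 filled circles lie between 155 and 253 bp past the end, where open circles of the other genes also gather.

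Counted by window in the replicated list, CCT genes carried summits at both kinds of end. At the 5′ window, 3 of 8 CCT genes had a replicated summit (37.5%: cct-1, cct-7 and cct-8), and 3.49% of all protein-coding genes did. At the 3′ window, 3 of 8 had one (37.5%: cct-2, cct-6 and cct-7), and 4.48% of all genes did. In the 1789 strongest summits of replicate 1 the counts were 6 of 8 within 1000 bp (10.6% of all genes), 2 of 8 at the 5′ window (3.27%) and 3 of 8 at the 3′ window (4.48%). In those of replicate 2 they were 5 of 8 (10.5%), 2 of 8 (3.41%) and 3 of 8 (4.46%). The sixth gene of replicate 1 was cct-5. The 5′ window lost cct-7 in each replicate, and the 3′ window held cct-2, cct-6 and cct-7 in both. In the pooled list all 8 genes had a summit within 1000 bp, but so did 58.3% of all genes. A count over 8 genes moves by 12.5 percentage points with each gene.

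**Figure D4:**
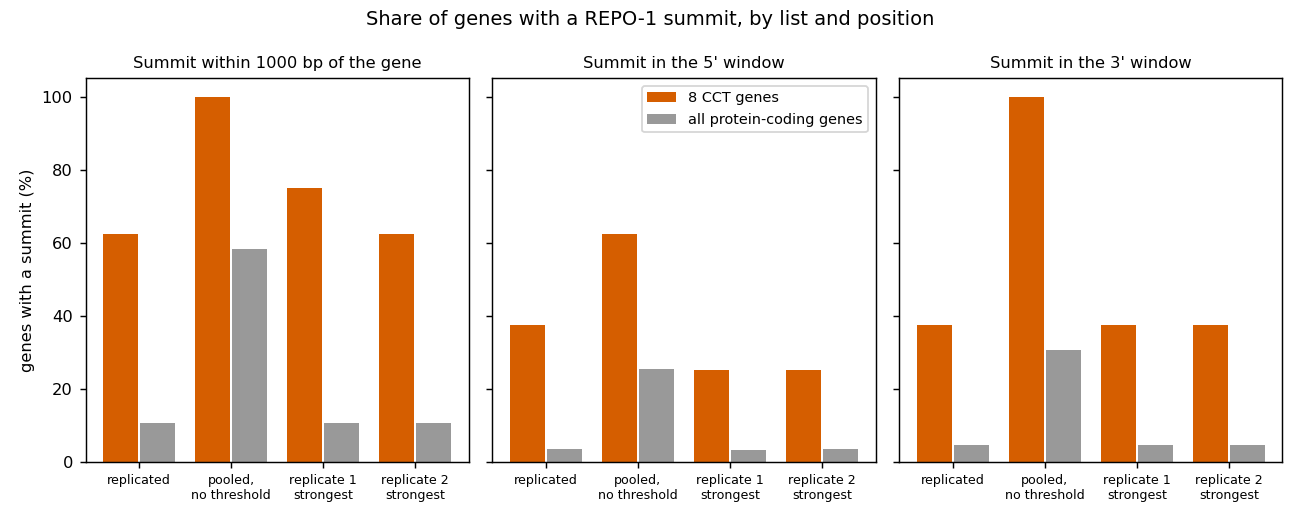
Bars give the percentage of genes with a summit within 1000 bp of the gene (left), in the 5′ window (middle) and in the 3′ window (right), for the 8 CCT genes (orange) and for all 19973 protein-coding genes (grey) in each list. In the replicated list the bars are 62.5% beside 10.7%, 37.5% beside 3.49% and 37.5% beside 4.48%.

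The CCT genes share a gene arrangement that bears on who owns these peaks. All 8 have their nearest upstream protein-coding neighbour on the other strand, with a gap between 330 bp (cct-6) and 1189 bp (cct-2). Of all protein-coding genes, 45.0% have an upstream neighbour on the other strand at any distance, and 19.6% have one within 1200 bp. Of the 8, 5 are followed on the same strand by a gene within 300 bp, as in worm operons, where 14.6% of all genes are. These followers are mrpl-50 (25 bp after cct-2), csn-4 (94 bp after cct-8), F54A3.2 (102 bp after cct-3), atf-7 (142 bp after cct-5) and ddx-23 (260 bp after cct-6). The genes cct-1 and cct-7 overlap the end of a gene that runs towards them, and the next gene after cct-4 is 9117 bp away. All 8 CCT genes fall in the class with an other-strand upstream neighbour within 1200 bp, a limit chosen after the CCT gaps were seen. Within it, 3 of 8 CCT genes had a replicated summit in the 5′ window, beside 6.01% of the 3912 genes in the class and 2.88% of the genes outside it. In the class followed on the same strand within 300 bp, also a limit chosen afterwards, 2 of 5 CCT genes had a replicated summit in the 3′ window, beside 6.53% of the 2924 genes in the class. Outside that class 1 of 3 CCT genes had one (cct-7), beside 4.12% of the genes. By nearest protein-coding 5′ end, 1 of 8 CCT genes owned a replicated summit (cct-7, through the summit past its 3′ end), and 7.38% of all protein-coding genes owned at least 1.

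Inside the CCT genes summits were many and weak. The pooled list placed 39 summits in the 8 gene bodies, 1.04 per kb over the summed length, against 0.361 per kb summed over all protein-coding genes. The densities ran between 0.92 per kb in cct-7 and 1.39 per kb in cct-1. Signals of these 39 ran between 36.9 and 115.5 with a median of 57.7, all under the lowest value of the replicated list, 131.5, and near the median of 56.5 of the pooled list. The long genes cct-3 (10000 bp), cct-5 (8927 bp) and cct-8 (6813 bp) held 11, 9 and 7 of them, and the other genes, of 2045 to 3260 bp, held 2 or 3 each. Of the 39, 19 lay in coding exons, 19 in introns and 1 in an untranslated part of an exon. Coding exons held 48.7% of the summits on 34.8% of the 37437 bp of these genes, and introns held 48.7% on 55.4%. The same split over all protein-coding genes was not counted, and no difference was tested. The class of a summit could also change between lists. In cct-3, a pooled summit 8203 bp from the 5′ end lay in an intron. Its counterparts in replicate 1 (8123 bp) and replicate 2 (8136 bp) lay in a coding exon. Signals in coding exons (median 58.2, highest 115.5) and in introns (median 56.7, highest 89.8) covered much the same range.

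Partners and substrates of CCT were counted the same way in the replicated list. Over all protein-coding genes, 3.49% had a replicated summit in the 5′ window, 4.48% in the 3′ window and 10.7% within 1000 bp. Within 1000 bp, 3 of 5 actin, 2 of 6 prefoldin, 4 of 16 tubulin and 4 of 14 proteasome core genes had one. So did 2 of 2 genes of the mitochondrial chaperonin. A share well above 10.7% was thus not particular to the CCT genes. Prefoldin hands unfolded actin and tubulin to CCT, and 2 of its 6 genes had a summit in the 5′ window. These were pfd-1 (350 bp upstream, signal 157.5, rank 1128, with F01G4.6 nearer at 259 bp) and pfd-6 (74 bp upstream, signal 133.9, rank 1704). None of the 6 had one in the 3′ window. Of 16 tubulin genes, tba-2 had a summit in the 5′ window (141 bp upstream, signal 394.3, rank 108) and tbb-2 in the 3′ window (346 bp past the end, signal 260.0, rank 331). Of 5 actin genes, act-3 had one in the 5′ window (251 bp upstream, signal 135.2, rank 1651), and 3 had one in the 3′ window. Those 3 were act-2 (313 bp past the end, signal 202.3, rank 631), act-5 (435 bp, signal 144.2, rank 1394) and act-3 (247 bp, signal 133.0, rank 1742). Some of the actin genes are near-identical copies, and how the authors placed reads that match several of these is not given in the sources used here. Neither hsf-1, the heat shock factor gene, nor txdc-9, whose human counterpart is a regulator of CCT, had a summit within 1000 bp. The proteasome core, another barrel of stacked rings, had none of 14 genes in the 5′ window and 4 in the 3′ window (pas-3, pas-7, pbs-2 and pbs-4, ranks 108 to 1421). Except at pas-7, the nearest protein-coding 5′ end belonged to another gene. It was that of chp-1 at pas-3 (106 bp), tba-2 at pbs-2 (141 bp) and mrrf-1 at pbs-4 (451 bp). These lists are small, and no difference between them and the CCT genes was tested.

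The mitochondrial chaperonin, a relative of CCT, gave the summit next in rank to that of cct-8 among 5′ windows. Its co-chaperonin gene Y22D7AL.10 had a summit 193 bp upstream with a signal of 734.6, rank 15, and the next gene in the stronger direction was tasp-1 (signal 784.1, rank 13). The gene of the chaperonin itself, hsp-60, lies on the other side of the same peak, 620 bp from the summit and outside the 5′ window. Like cct-7, Y22D7AL.10 also had summits past its 3′ end, at 241 bp (signal 218.8, rank 520) and 453 bp (signal 361.3, rank 138). The genes next in rank to cct-1 were mog-4, a DEAH-box helicase gene of splicing (signal 273.1, rank 293), and mekk-3 (signal 269.6, rank 300). Next to the upstream summit of cct-7 were bath-36 (signal 138.6, rank 1547) and F32D8.5 (signal 138.4, rank 1556).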

How the data were processed

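Region lists were analysed for 2 replicates of 1 group, on ce11. Per the text files deposited with each sample, regions were called on each replicate and on both together, and the replicated list was derived from these by IDR. The caller, the aligner, their versions and the IDR threshold are not stated in the labels or files (not given in the sources used here), and the control experiment that the labels name was not analysed here. Per region the authors deposited a signal value of unstated scale, the −log10 of a q-value, tied at its maximum for 1354 of 1789 replicated summits, and the offset of the summit from the region start, which served only to place summits. Ranks use the signal. The lists on ce10 were not used, since gene models are on WBcel235.

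Summits are region start plus offset, written 1-based. Gene models are those of Ensembl release 115, without the mitochondrial genome. A gene counted when a summit lay in the window of any of its transcripts. Neighbours are protein-coding genes, and gaps are the bases between genes. Replicate regions were matched by an overlap of at least 1 bp, with the strongest taken. Counts ran in Python 3.11.15 with numpy 2.4.6 and pandas 2.3.3, figures in matplotlib 3.10.9. Window counting was tested on simulated data.

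The CCT genes, the related lists, the motifs and the rule for named genes (all CCT genes, every possible owner of their summits, related genes with a summit at either end, genes next in rank) were chosen with earlier results of these data known. No p-value was computed. The depth is unknown, so no counting interval is given.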

Additional observations from a re-analysis of the deposited data

How the results depend on the processing

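The count of CCT genes with a replicated summit within 1000 bp was 5, and 5 to 6 when 1 replicate's strongest summits were used in place of the replicated list. It was 8 in the pooled list without a threshold and 2 within 200 bp of the gene. The 5′ window count of 3 was 2 from either replicate alone, 5 in the pooled list and 0 when cut to 200 bp before and 100 bp past the end, since all 3 summits were farther upstream. The 3′ window count of 3 was 3 from either replicate alone, 8 in the pooled list, and 7 in the pooled list from 100 to 300 bp past the end, which was chosen after seeing the data. The 6 replicated summits near the genes were 5 to 6 from 1 replicate and 58 in the pooled list. Of the 6, 5 overlapped a strong region of both replicates, 4 did so by at least 50% of both regions, and 6 overlapped one in the full lists. The pooled list holds 30000 summits by construction. Ranked by q-value the strongest summits of cct-1, cct-2, cct-6, cct-7 and cct-8 all tied at rank 1. In the single replicates these ranked 332 to 366, 629 to 678, 695 to 742, 217 to 225 and 13 to 14. Other alternatives gave counts within 1.5 times the reported ones. No paired analysis was possible because there was 1 group.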

Other observations

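The summit of rank 108 (signal 394.3) lay 141 bp upstream of tba-2, an alpha-tubulin gene, and 280 bp past the 3′ end of pbs-2, a proteasome core gene, so it counted once for each of these gene lists. Other tubulin genes, named here after their values were seen, had summits within 1000 bp that fell in neither window. For the gamma-tubulin gene tbg-1 it lay 847 bp upstream (signal 320.7, rank 196), with the 5′ end of rpac-19 nearer at 116 bp. For tba-7 it lay 382 bp inside the gene (signal 187.3, rank 754).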
